A study of Mus musculus with 7 samples.

Results

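The 10 genes described here restrain or report signalling through the kinase ERK, and they were followed across 4 treatments of RAW264.7, a line of mouse macrophage-like cells able to form bone-resorbing osteoclasts. They were the MAP kinase phosphatase genes Dusp1, Dusp2, Dusp4, Dusp5 and Dusp6, the Sprouty genes Spry1 and Spry2, the Sprouty-related genes Spred1 and Spred2, and Egr1, a gene switched on by ERK. The genes were chosen by name. An ATAC-seq peak was given to a gene when its midpoint lay inside the gene body or within 100 kb of it with that gene as the nearest protein-coding gene. By this rule the 10 of 21887 protein-coding genes held 1311 of 975394 peaks, of which 391 had their midpoint in a gene body, and 331 of the 344401 regions that remained after touching peaks of all libraries were joined.

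Open chromatin was mapped with a transposase that inserts sequencing adapters into accessible DNA, from 50000 cells per library. Cells were taken 4 h after RANKL (50 ng/ml), the cytokine that starts osteoclast formation, with 2 libraries, after RANKL (50 ng/ml) with I-BET (500 nM), an inhibitor of BET bromodomain proteins, with 2 libraries, or after I-BET (500 nM) without RANKL, with 1 library labelled as the second replicate. Untreated cells of the same line had 2 libraries. Nothing in the labels ties the replicates to separate cultures, so the spread between them may be technical, and RAW264.7 is an established line rather than primary cells.

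Growth factor receptors and cytokine receptors feed the Ras, Raf, MEK and ERK cascade, and several of its own target genes encode its brakes. Dusp1, Dusp2, Dusp4 and Dusp5 encode nuclear phosphatases that strip phosphate from MAP kinases, Dusp6 encodes a cytoplasmic phosphatase specific for ERK, Sprouty proteins act upstream of Ras and Raf, and Spred proteins recruit the Ras inactivator neurofibromin to the membrane. Egr1, a zinc finger transcription factor, is an immediate early target of ERK acting through the factors Elk1 and SRF. ATAC-seq peaks show where DNA at these genes is accessible, not how much RNA or protein the genes make.

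The libraries held 117175 to 166369 peaks, and read counts are not given in the files, so the depth of each library is unknown. Peaks with a deposited -log10 q of at least 5 made up 74.0% of the list of RANKL+I-BET replicate 2 and 25.3% of that of untreated replicate 1, the highest and the lowest share. Of the regions of untreated replicate 1, 42.9% were called in no other library. Regions with peaks in all 7 libraries made up 29.4% of those at 10 macrophage marker genes, all of which had peaks in every library, against 6.19% at B lymphocyte, 20.7% at T lymphocyte, 9.38% at fibroblast and osteoblast and 14.3% at erythroid and granulocyte markers, of which Hbb-bt had no peak. Summed peaks at the macrophage markers numbered 130 and 124 in RANKL cells, 121 and 134 in RANKL+I-BET cells, 143 in I-BET cells and 116 and 121 in untreated cells.

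The stretch of 250 bases before the transcription start was read for 8 genes in the RefSeq promoter table (GRCm38.p6, the assembly of mm10). These were all but Egr1, left out by plan, and Dusp4, for which no stretch was read. The stretches of Dusp5, Dusp1 and Dusp2 are shown because they held matches to motifs bound by factors downstream of signalling kinases. That of Spry1 is shown because its start was the one among these 8 that was not called open in all 7 libraries. Each is written 5′ to 3′ on the strand of its gene, with matches in capitals and positions counted backward from -1 at the base before the start.
Dusp5 (chr19:53528895-53529144, plus strand): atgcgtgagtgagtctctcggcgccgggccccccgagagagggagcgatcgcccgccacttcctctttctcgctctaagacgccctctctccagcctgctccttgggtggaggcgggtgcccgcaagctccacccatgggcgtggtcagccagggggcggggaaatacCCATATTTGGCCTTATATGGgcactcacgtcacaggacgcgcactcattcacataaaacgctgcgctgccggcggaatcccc
Dusp1 (chr17:26508473-26508722, minus strand): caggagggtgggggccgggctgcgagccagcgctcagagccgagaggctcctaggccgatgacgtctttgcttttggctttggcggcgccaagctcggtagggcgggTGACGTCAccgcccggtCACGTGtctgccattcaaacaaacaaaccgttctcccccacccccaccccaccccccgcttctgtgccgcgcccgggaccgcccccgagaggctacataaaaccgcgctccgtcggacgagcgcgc
Dusp2 (chr2:127335909-127336158, plus strand): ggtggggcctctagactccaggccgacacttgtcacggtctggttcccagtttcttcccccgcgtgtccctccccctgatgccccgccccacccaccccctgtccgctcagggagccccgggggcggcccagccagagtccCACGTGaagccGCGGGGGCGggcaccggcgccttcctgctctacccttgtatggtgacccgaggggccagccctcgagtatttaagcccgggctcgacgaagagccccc
Spry1 (chr3:37639697-37639946, plus strand): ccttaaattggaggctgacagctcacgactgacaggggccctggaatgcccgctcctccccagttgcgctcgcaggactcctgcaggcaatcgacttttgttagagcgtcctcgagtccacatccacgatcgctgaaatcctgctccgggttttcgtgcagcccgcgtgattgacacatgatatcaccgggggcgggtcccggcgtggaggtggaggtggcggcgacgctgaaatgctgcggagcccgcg

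The Dusp5 window held 2 abutting CArG boxes, the element bound by the serum response factor SRF, at -82 to -73 and -72 to -63. CArG boxes occurred in 1.47% of all 32851 promoter windows of this length. The Dusp1 window held a CRE (TGACGTCA), the element bound by CREB and ATF factors, at -143 to -136 and an E-box (CACGTG) at -126 to -121, and the Dusp2 window held an E-box at -109 to -104 and a match to the Egr motif GCGGGGGCG at -98 to -90. A CRE was present in 1.55% of all windows, an E-box in 6.02% and GCGGGGGCG in 2.57%. The Spry1 window and those of Dusp6, Spry2, Spred1 and Spred2 held none of the motifs searched on both strands, which also included AP-1 (TGANTCA, 6.75% of all windows), ETS (CCGGAAG, 6.91%) and a second Egr form (GCGTGGGCG, 0.536%). These matches describe letters in a window. G and C made up 56.0% to 70.8% of the 8 windows, against a median of 52.4% over all windows.

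The starts of 7 of these 8 genes lay in a region called in all 7 libraries. So did the lower-coordinate end of Dusp4 and of Egr1, whose strands were not read here. Among the 43170 regions called in all 7 libraries, each was given a percentile by its strongest deposited -log10 p within its own library, with 100 the strongest. The region over the start of Dusp6 ranked between the 91.3 and the 96.1 percentile in the 7 libraries, that of Spred2 between 88.6 and 94.7, and that over the lower-coordinate end of Egr1 between 94.9 and 98.9. The widest spread among these start regions was at Spry2, with percentiles of 89.1 and 71.0 in RANKL cells, 82.2 and 71.0 in RANKL+I-BET cells, 79.2 in I-BET cells and 85.3 and 69.1 in untreated cells. At Spry2 the libraries numbered 1 ranked above those numbered 2 in each group with both, and the treatments overlapped.

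Spry1, which encodes an inhibitor of receptor tyrosine kinase signalling, had a start that 5 of the 7 libraries called open. Its region at chr3:37639756-37640543 was called in RANKL replicate 2, in both RANKL+I-BET libraries, in I-BET replicate 2 and in untreated replicate 2, and not in RANKL replicate 1 or untreated replicate 1. The deposited folds there, each the authors' ratio of pileup to local background, were 5.26 in the RANKL library, 3.25 and 3.71 in the RANKL+I-BET libraries, 2.84 in the I-BET library and 3.91 in the untreated library that called it. The strongest Spry1 peak lay elsewhere in all 7 libraries, in a region 9225 bp past the gene end (chr3:37653824-37654874). That region ranked at the 86.1 and 71.9 percentile in RANKL cells, at 74.9 and 71.6 in RANKL+I-BET cells, at 64.4 in I-BET cells and at 51.3 and 72.2 in untreated cells, so that RANKL and untreated libraries overlapped.

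**Figure D1:**
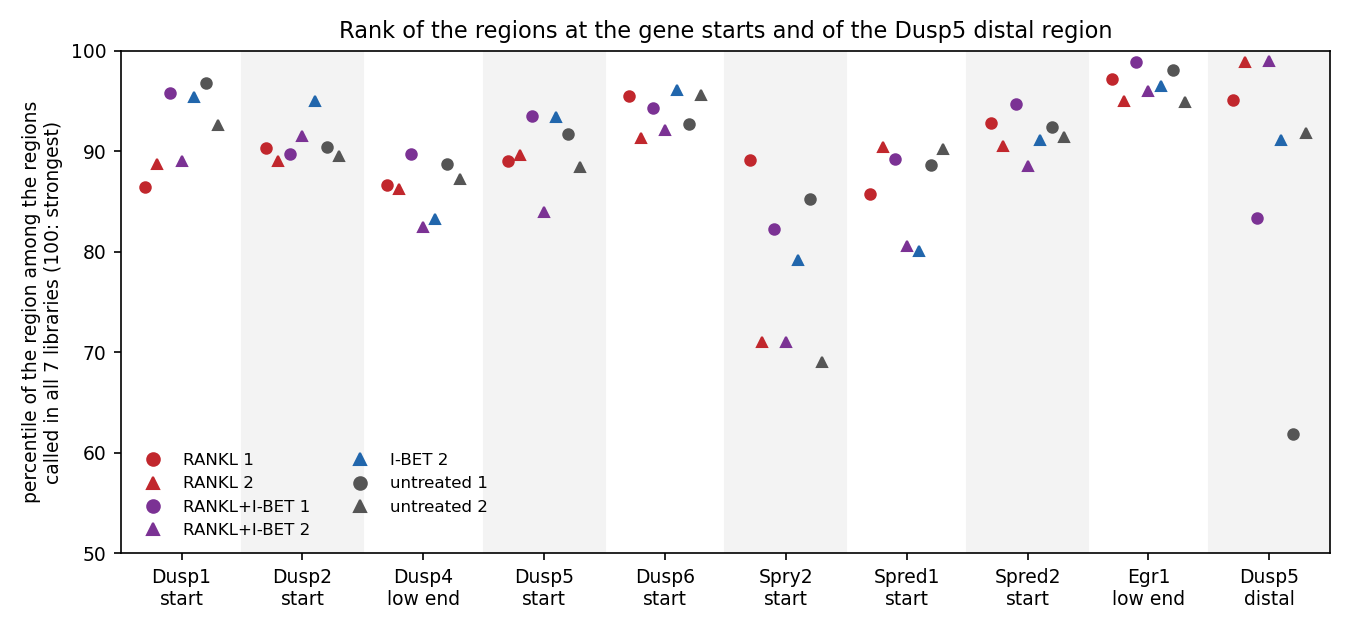
Percentile (y axis, 100 the strongest) of the region over the start of each gene among the 43170 regions called in all 7 libraries, with 1 point per library, circles for replicate 1 and triangles for replicate 2. For Dusp4 and Egr1 the region over the lower-coordinate end of the gene is shown, Spry1 has no such region, and the rightmost column is the region 23237 bp past the end of Dusp5, highest in RANKL+I-BET replicate 2, at 99.0, and lowest in untreated replicate 1, at 61.9.

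Of the joined regions at the 10 genes, 76 of 331 (23.0%) were called in all 7 libraries, beside 12.5% of all regions. In the pathway lists described below, such regions were 141 of 552 at ERK target genes and 42 of 203 at other phosphatases. They were 43 of 271 at other restraints on ERK and 85 of 504 in the ERK cascade. With 29.4% at the macrophage markers, a share above that of all regions was not particular to these 10 genes. Regions called in 1 library made up 38.4% at these genes and 55.6% over all regions. The shared regions were long, with a median of 1432.5 bp against 204 bp for those of a single library. Joined regions lengthen as touching peaks of more libraries are added, so this contrast follows in part from the joining. Shared regions made up 42.3% of the 26 at Dusp4, 36.0% of the 25 at Dusp6 and 8.70% of the 23 at Spry1. At Spred1 and Spred2, the longest genes here with bodies of 61.2 and 99.6 kb, 48.7% and 54.8% of regions overlapped the gene body, while at Dusp1, a gene of 2.88 kb, 4.17% did. The number of peaks at a gene grows with the stretch of genome assigned to it, so peak numbers were not compared between genes.

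At Dusp1, Dusp2 and Dusp4 the raw peak numbers of RANKL and untreated cells shared at least 1 value. Dusp1, whose product is a broad MAP kinase phosphatase, had 18 and 19 peaks in RANKL cells, 18 and 19 in RANKL+I-BET cells, 20 in I-BET cells and 17 and 18 in untreated cells. Its strongest peak was over the gene in 2 of the 7 libraries and in a region 6801 bp past the gene end (chr17:26496638-26498790) in the other 5. Dusp2, which encodes a phosphatase known from activated leukocytes, had 6 and 5 peaks in RANKL cells, 7 and 5 in RANKL+I-BET cells, 6 in I-BET cells and 6 and 8 in untreated cells. Its strongest peak overlapped the gene in all 7 libraries. Per 100000 peaks of the list, Dusp2 stood at 3.89 and 3.77 in RANKL cells and at 4.39 and 6.83 in untreated cells. Dusp4, encoding another nuclear phosphatase, had 22 and 20 peaks in RANKL cells, 21 and 21 in RANKL+I-BET cells, 23 in I-BET cells and 22 and 26 in untreated cells. On the same scale Dusp4 stood at 14.3 and 15.1 in RANKL cells and at 16.1 and 22.2 in untreated cells. The RANKL+I-BET libraries, at 16.8 and 12.6, lay on both sides of the RANKL ones. So on this scale RANKL lay below untreated without overlap at Dusp2 and Dusp4, and how many of all genes show this was not counted.

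Dusp5, whose product is a nuclear phosphatase specific for ERK, had 30 and 32 peaks in RANKL cells, 25 and 38 in RANKL+I-BET cells, 31 in I-BET cells and 21 and 25 in untreated cells. The raw numbers of RANKL and untreated cells did not overlap, but per 100000 peaks they did, at 19.5 and 24.1 in RANKL cells and 15.4 and 21.3 in untreated cells. Bases covered by peaks at Dusp5 were most in RANKL+I-BET replicate 2, at 31644, and fewest in untreated replicate 1, at 8328. Dusp6, the cytoplasmic ERK phosphatase gene, had 18 and 15 peaks in RANKL cells, 14 and 18 in RANKL+I-BET cells, 19 in I-BET cells and 15 and 13 in untreated cells, and its strongest peak overlapped the gene in all 7 libraries.

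The Sprouty genes had few peaks, and the libraries with I-BET held the most. Spry1 had 8 and 7 peaks in RANKL cells, 8 and 9 in RANKL+I-BET cells, 10 in I-BET cells and 6 and 6 in untreated cells, so that RANKL replicate 1 tied with RANKL+I-BET replicate 1. Spry2, which encodes the best studied Sprouty inhibitor, had 9 and 6 peaks in RANKL cells, 10 and 10 in RANKL+I-BET cells, 11 in I-BET cells and 6 and 5 in untreated cells. All 3 libraries with I-BET lay above all 4 without it at Spry2, by a single peak at the narrowest point. Per 100000 peaks of the list Spry2 had 5.84 and 4.52 in RANKL cells, 7.98 and 6.01 in RANKL+I-BET cells, 7.68 in I-BET cells and 4.39 and 4.27 in untreated cells, and the libraries with I-BET were again the 3 highest. How many of all genes show this order was not counted, so it cannot be read as a trait of Spry2.

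At Spred1 the libraries numbered 2 held more peaks than those numbered 1. Spred1, a brake on Ras whose human counterpart is mutated in Legius syndrome, had 35 and 51 peaks in RANKL cells, 27 and 59 in RANKL+I-BET cells, 39 in I-BET cells and 21 and 45 in untreated cells. Within each of the 3 groups with both replicates the second library was the higher, so the treatments overlapped. Spred2, its close relative, had 31 and 39 peaks in RANKL cells, 31 and 47 in RANKL+I-BET cells, 31 in I-BET cells and 31 and 31 in untreated cells, so that 5 of its 7 libraries had the same number. Egr1 had 7 and 6 peaks in RANKL cells, 5 and 8 in RANKL+I-BET cells, 4 in I-BET cells and 8 and 3 in untreated cells, and its strongest peak overlapped the gene in all 7 libraries. Regions called in the 3 libraries numbered 2 of the replicated groups and in none of their 3 libraries numbered 1 were 12 of the 331 (3.63%, against 1.77% of all regions), 8 of them at Spred1, 2 at Dusp5 and 2 at Spred2. The opposite pattern occurred at 0 of the 331 (0.23% of all regions). Libraries numbered 2 also had the larger share of peaks with a -log10 q of at least 5 in each replicated group, and the part of this in the Spred1 numbers was not tested.

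**Figure D2:**
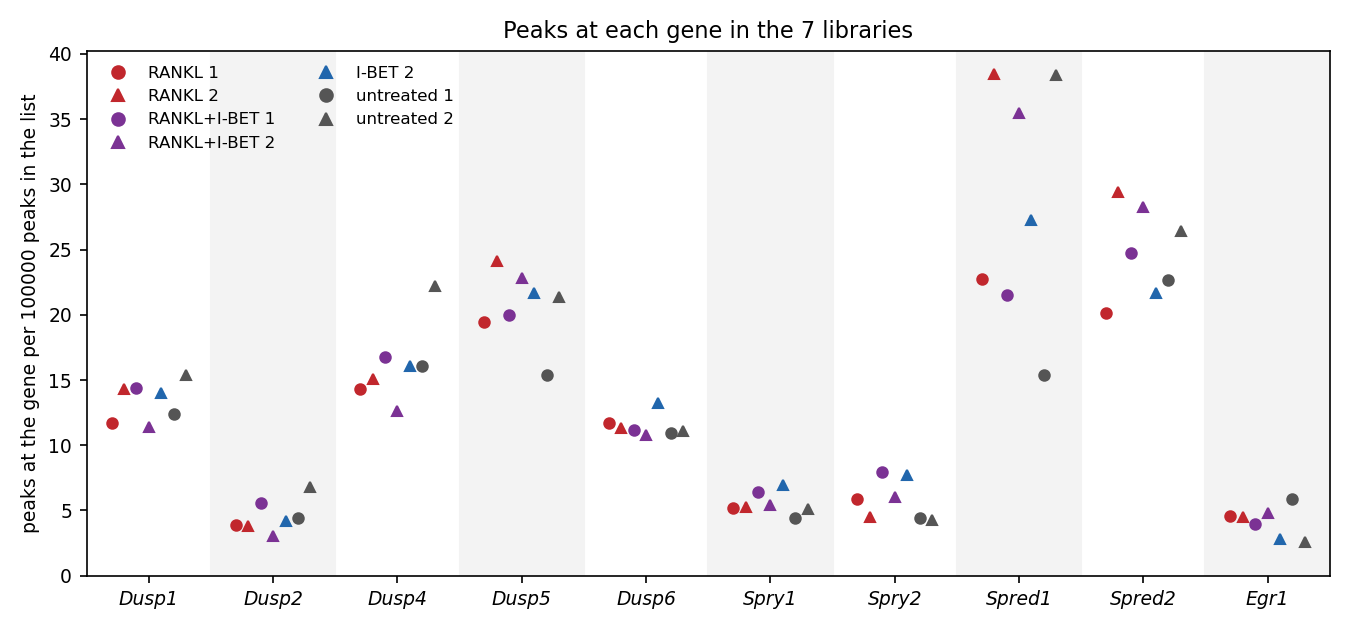
Peaks at each of the 10 genes per 100000 peaks in the list of each library (y axis), with 1 point per library, circles for replicate 1 and triangles for replicate 2. At Spred1 the triangles lie above the circles within each replicated treatment, for instance 38.5 and 22.7 in the RANKL libraries. Both RANKL points lie below both untreated points at Dusp2 and Dusp4 and above both at Dusp6, Spry1 and Spry2. At the other genes they overlap, and how many of all genes show such a separation was not counted.

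Peaks per gene, scaled to list length, were compared over all 14465 genes with a mean of at least 2 peaks per library with limma, as log2 of peaks plus 0.5, so that fold changes of genes with few peaks are understated. Between RANKL and untreated cells none of the 10 genes and 0 genes overall (0% of those tested) passed an adjusted p of 0.05, and 365 genes overall had an unadjusted p under 0.05, none of them among the 10. The log2 fold change at these genes had a median of 0.09, beside a median of -0.02 over all genes tested, with 6 of 10 positive. The largest value above 0 was at Spred1, at 0.28 (95% interval -0.71 to 1.26), and Dusp5 had 0.25 (-0.41 to 0.91). The lowest values were at Dusp2, at -0.49 (-1.44 to 0.46), and Dusp4, at -0.36 (-1.05 to 0.33). These intervals all include 0, and they also include changes of more than 1.5-fold, so they do not show that the genes kept their peaks.

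With RANKL+I-BET against RANKL, 0 of the 10 genes and 0 of all genes (0%) passed, with 102 genes at an unadjusted p under 0.05. Spry2 had the largest log2 fold change, at 0.40 (-0.40 to 1.21), and Dusp5 had -0.02 (-0.68 to 0.64). With RANKL+I-BET against untreated cells the counts were again 0 and 0 (0%), with 258 genes at an unadjusted p under 0.05. Spry2 stood at 0.62 (-0.18 to 1.43), the largest change among the 10 genes in these 3 comparisons. The difference between the RANKL effects with and without I-BET, which rests on the lone I-BET library as its only estimate of that group, called 0 of the 10 and 0 genes overall (0%), with 313 at an unadjusted p under 0.05. Its values ran from -0.36 at Spry2 to 0.46 at Dusp2.

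**Figure D3:**
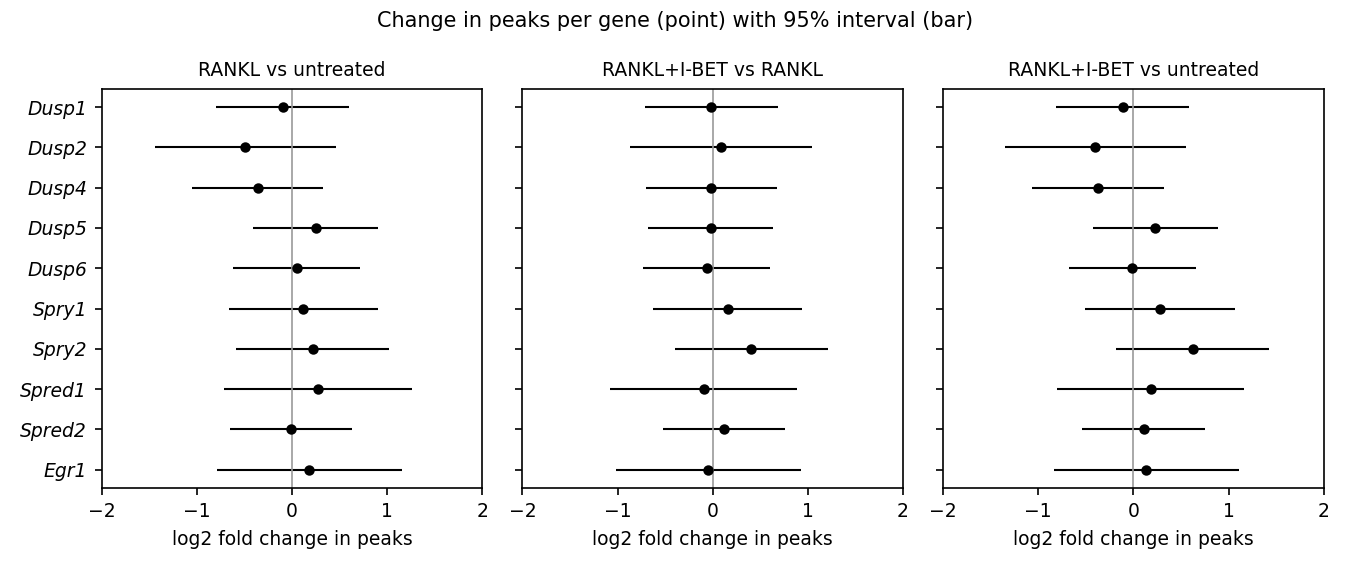
Log2 fold change in peaks per gene (x axis, point) with its 95% interval (bar) from limma for the 10 genes in 3 comparisons. Every interval crosses 0, and the value farthest from 0 is that of Spry2 for RANKL+I-BET against untreated cells, at 0.62.

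Single regions gave a finer view. A region was named RANKL-only when both RANKL libraries called it and no untreated library did. At the 10 genes 10 of 266 regions called in at least 1 of these 4 libraries were RANKL-only (3.76%), close to the 3.37% of all such regions. They lay at Dusp5, Dusp6, Spry2, Spred1 and Spred2, with 2 each, and Dusp1, Dusp2, Dusp4, Spry1 and Egr1 had 0. Untreated-only regions, called in both untreated and neither RANKL library, were 2 of 266 (0.752%, against 0.748% of all such regions), at Dusp4 and Spred1. With 2 libraries against 2 there are 3 ways to split them, so these counts carry no p-value. The RANKL-only regions had a median length of 522.5 bp, against 308 bp over all joined regions and 1432.5 bp for the shared regions at these genes. These lengths are not like with like, since joined length grows with the libraries that call a region and a RANKL-only region needs at least 2. The RANKL-only regions were weak, with a median deposited -log10 p of 5.77 over both RANKL libraries. In 1 of the 10 both RANKL libraries had a -log10 q of at least 5.

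The strongest of them was at Dusp5, at chr19:53490846-53491629, centred 37.9 kb before the start. Its deposited -log10 p was 7.10 and 15.1 in RANKL cells, 5.42 and 32.0 in RANKL+I-BET cells and 3.79 in I-BET cells, and neither untreated library called it. The other Dusp5 region lay within the gene at 53540540 to 53541137, near its far end, with -log10 p of 3.99 and 4.26 in RANKL cells and 8.10 in RANKL+I-BET replicate 2, and no other library called it. Whether it is exonic or intronic is not given, since no exon table was used here.

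At Dusp6 the regions lay 19.1 kb before the start (chr10:99243818-99244336) and 45.8 kb past it (chr10:99308805-99309252). Their -log10 p values were 6.43 and 3.56 in RANKL cells for the first and 3.44 and 5.77 for the second. RANKL+I-BET replicate 2 and the I-BET library called both of them as well, while RANKL+I-BET replicate 1 and the untreated libraries called neither.

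Spry2 had a region 30.1 kb before its start (chr14:105926690-105927238) that was called in all 4 libraries with RANKL and in none of the 3 without. Its -log10 p was 6.43 and 10.1 in RANKL cells and 4.21 and 11.1 in RANKL+I-BET cells. Spred2 had another of this pattern 33.4 kb before its start (chr11:19890714-19891367), with 6.43 and 5.77 in RANKL cells and 9.63 and 18.7 in RANKL+I-BET cells. These 2 of 331 regions (0.604%) stand beside 0.529% over all regions. The reverse pattern, called in all 3 libraries without RANKL and in none of the 4 with it, occurred at 0 of the 331 (0.0244% of all regions). The second Spry2 region lay 91.3 kb past the start (chr14:105805258-105805712), the second Spred2 region inside the gene 65.2 kb from the start (chr11:19989441-19989937), and those of Spred1 lay 44.1 kb before the start (chr2:117076725-117077250) and inside the gene 56.8 kb from it (chr2:117177695-117178057). These 4 regions were each called in RANKL+I-BET replicate 2 beside the RANKL libraries and in no other library.

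**Figure D4:**
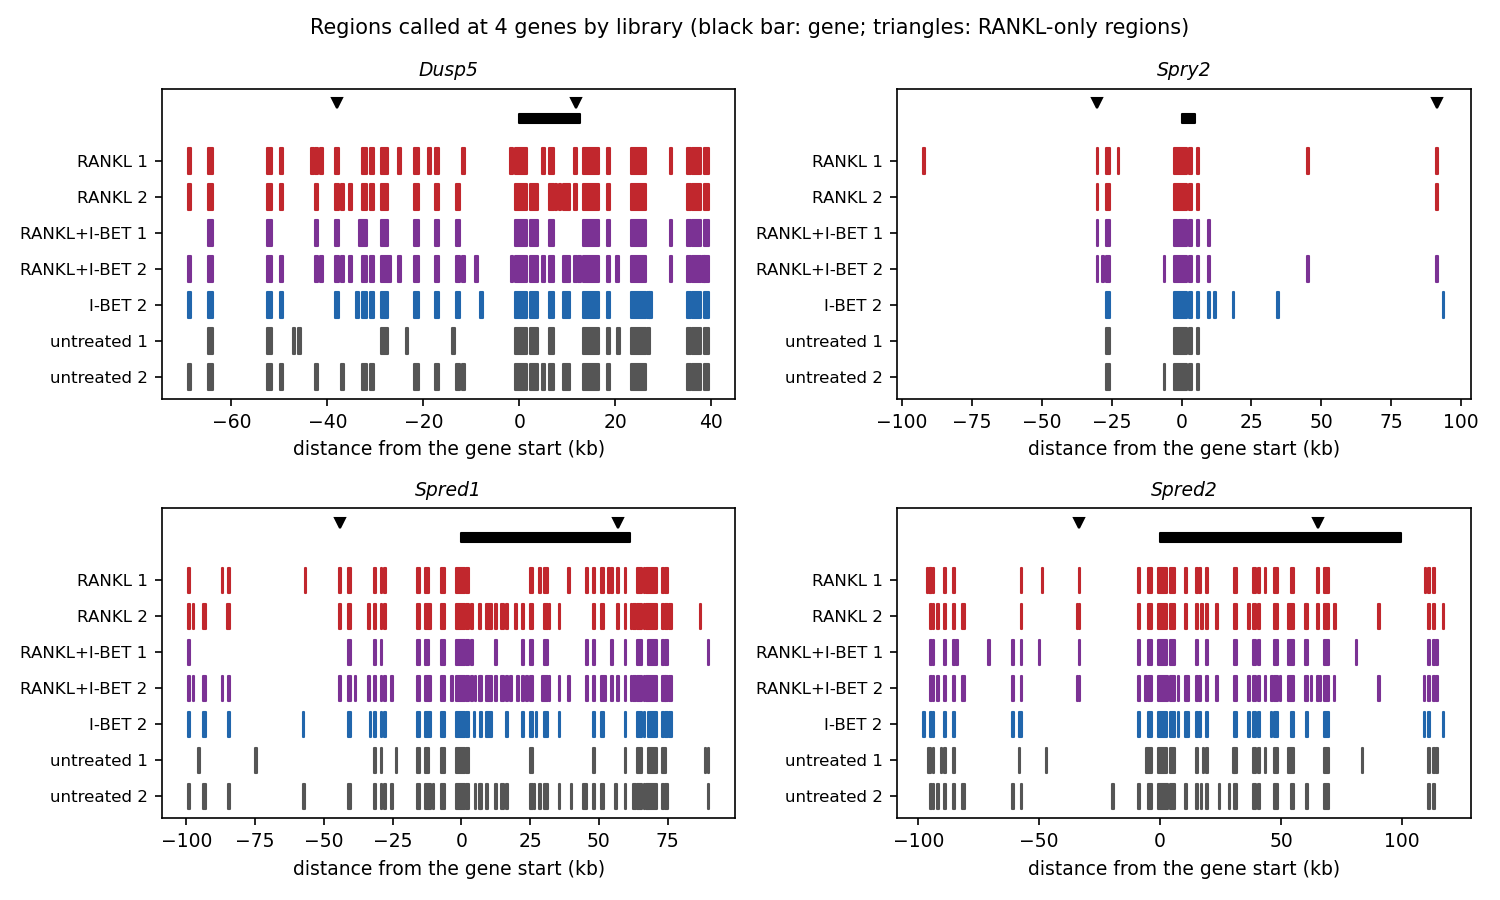
Regions called in each library (rows) at Dusp5, Spry2, Spred1 and Spred2 by distance from the gene start in kb, running with transcription, where the black bar is the gene, triangles are the RANKL-only regions and short regions are widened to be seen. The RANKL-only marks lie 37.9 and 11.7 kb from the start of Dusp5 on its 2 sides, and blocks around the starts are filled in all 7 rows.

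Of the 10 RANKL-only regions at these genes, RANKL+I-BET replicate 1 called 3, RANKL+I-BET replicate 2 called 10 and the I-BET library called 3. Over all RANKL-only regions of the genome the shares were 39.9%, 85.2% and 32.1%. Both RANKL+I-BET libraries called 3 of the 10, at Dusp5, Spry2 and Spred2, beside 37.4% of all RANKL-only regions. The list of RANKL+I-BET replicate 2 was 166369 peaks long and that of replicate 1 was 125240, and how far this sets the difference between these libraries was not tested.

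Regions called in both RANKL+I-BET libraries and neither RANKL library were 3 of 266 (1.13%, against 1.86% of all such regions), and the reverse class held 0 (0.571% of all such regions). One of the 3, at Spry2 9.68 kb past the start (chr14:105886886-105887395), was called in all 3 libraries with I-BET and in none of the 4 without, with -log10 p of 5.42 and 9.56 in RANKL+I-BET cells and 4.66 in I-BET cells. It was 1 of 331 (0.302%) with that pattern, beside 0.142% of all regions, and the reverse pattern occurred at 0 (0.00755% of all regions). The other 2 lay at Spred2 and were each also called in 1 untreated library. Against untreated cells, both RANKL+I-BET libraries and no untreated library called 11 of 282 regions (3.90%, against 3.73% of all such regions), with 4 at Spred1, 2 each at Dusp5, Spry2 and Spred2 and 1 at Egr1, and 0 showed the reverse (0.458% of all such regions).

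When 1 library is left out the other stands for its group, so a class needs fewer libraries to match. The RANKL-only count could then only stay the same or rise, which does not test how far it depends on single libraries. Without RANKL replicate 1 or RANKL replicate 2 the RANKL-only count was 41 in both cases, without untreated replicate 2 it was 38 and without untreated replicate 1 it was 11.

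**Figure D5:**
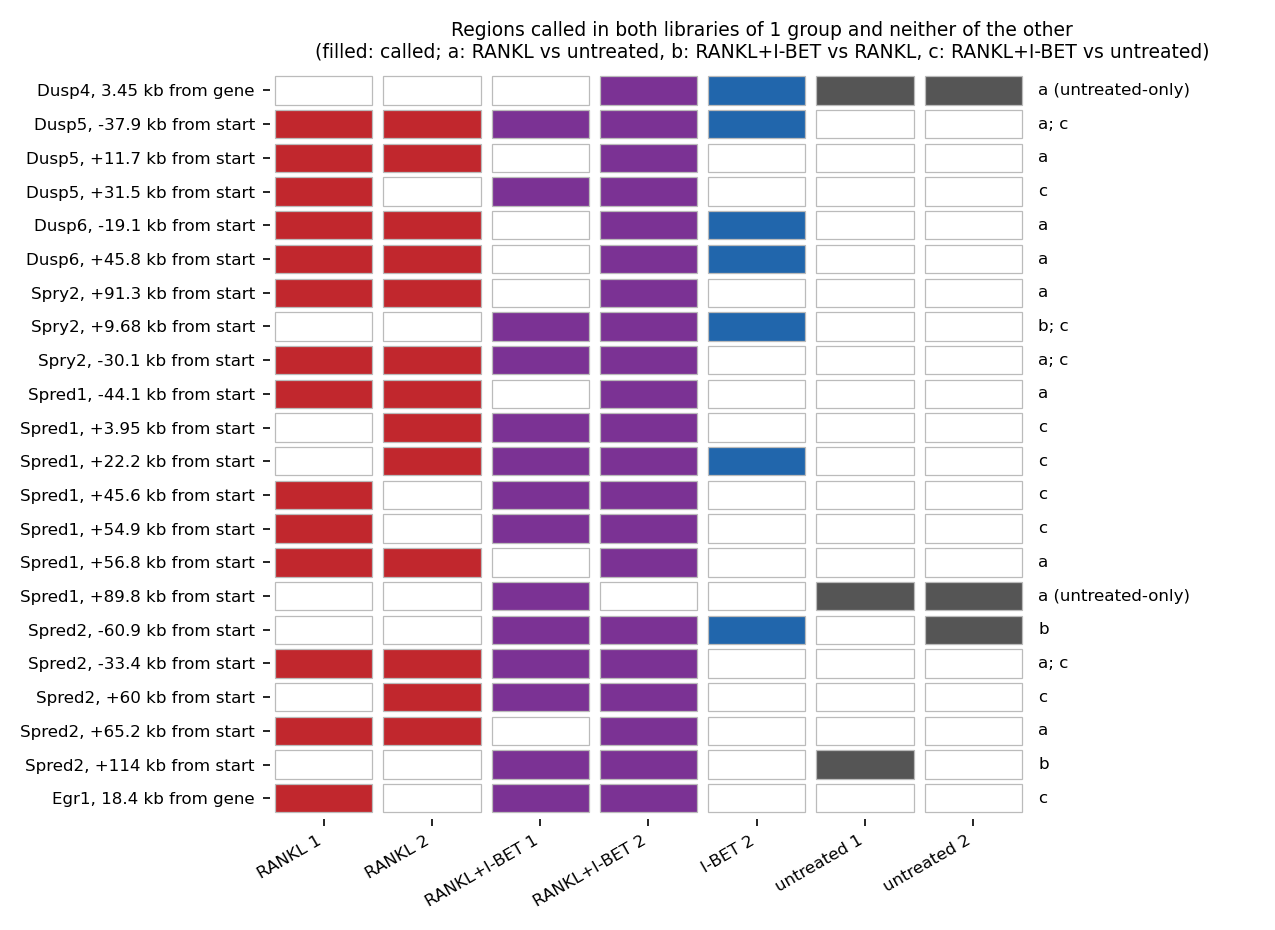
The 22 regions at these genes that set 2 groups fully apart in at least 1 of the 3 comparisons (rows), with filled cells for the libraries (columns) that called them and letters for the comparison. RANKL+I-BET replicate 2 fills 21 of the rows, and 2 rows, at Spry2 and Spred2, are filled in the 4 libraries with RANKL alone.

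A region open in every library can still change in strength, and this was read from the within-library percentiles of the 76 shared regions, a measure added after the data had been seen. Both RANKL libraries ranked above both untreated libraries at 7 of the 76 regions (9.21%, against 13.7% of all shared regions) and below both at 7 (9.21%, against 15.9%). With RANKL+I-BET against RANKL the counts were 8 higher (10.5%, against 7.95%) and 7 lower (9.21%, against 7.85%), and with RANKL+I-BET against untreated cells they were 8 higher (10.5%, against 12%) and 8 lower (10.5%, against 14.7%). In limma on normal scores of the percentiles, 0 of the 76 and 0 of 43170 regions (0%) passed an adjusted p of 0.05 in each of the 3 comparisons, and 1391, 36 and 960 regions had an unadjusted p under 0.05. Each count is below the share of 0.05 that a calibrated test gives without any change. The fit was thus conservative, and its result does not show that the regions kept their strength. With the replicate number as a term of the fit, 6477, 482 and 4388 regions had an unadjusted p under 0.05 in limma, among them 11, 1 and 6 of the 76.

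A region 23237 bp past the end of Dusp5 (chr19:53565046-53567008) was singled out after its values were seen. It ranked at the 95.1 and 98.9 percentile in RANKL cells, at 83.4 and 99.0 in RANKL+I-BET cells, at 91.1 in I-BET cells and at 61.9 and 91.8 in untreated cells. Both RANKL libraries lay above both untreated libraries, while RANKL+I-BET replicate 1 lay between the untreated values. The RANKL difference was 1.13 on the normal-score scale (SE 0.51, adjusted p = 0.986 in limma), which does not pass the threshold of 0.05. With the replicate number as a term of the fit the same difference had an adjusted p of 0.0411 in limma (SE 0.17), so the call depends on whether libraries of the same number are taken as pairs, which the labels do not say. Without untreated replicate 1, in which the region covered 844 bp against 1641 bp in untreated replicate 2, the difference was 0.583. It was the strongest Dusp5 peak of its list in both RANKL libraries, in RANKL+I-BET replicate 2 and in untreated replicate 2, while the peak over the start was the strongest in the other 3 libraries.

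Among shared regions of the other genes, that over the Dusp1 start (chr17:26505873-26510616) ranked at the 86.5 and 88.7 percentile in RANKL cells, at 95.8 and 89.0 in RANKL+I-BET cells, at 95.4 in I-BET cells and at 96.8 and 92.6 in untreated cells. The RANKL values were the lowest of the 7, and the difference from untreated cells was -0.49 (SE 0.26, adjusted p = 0.986 in limma). A region 553 bp past the end of Spry2 (chr14:105890397-105891394) ranked at 39.5 and 16.9 in RANKL cells, at 10.5 and 12.3 in RANKL+I-BET cells, at 2.32 in I-BET cells and at 1.07 and 8.88 in untreated cells. Its RANKL difference was 1.21 (SE 0.48, adjusted p = 0.986 in limma). A region within Spred2 (chr11:19962714-19964217) ranked at 3.87 and 15.5 in RANKL cells, at 15.7 and 21.5 in RANKL+I-BET cells, at 37.6 in I-BET cells and at 30.2 and 38.1 in untreated cells, a difference of -0.98 (SE 0.36, adjusted p = 0.986 in limma). In the fit without the replicate number, the regions of Spry2 and Spred2 were the 2 of 76 with an unadjusted p under 0.05, beside 1391 of 43170 regions in all.

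Other genes of the pathway were counted by lists, as shares of the regions called in at least 1 library of the comparison, so that they stand beside the 3.37% RANKL-only and 0.748% untreated-only of all such regions. The list of the ERK cascade (20 genes) ran from signalling proteins upstream of Ras, such as Grb2 and Sos1, to the kinase RSK. It had 7 RANKL-only and 5 untreated-only regions of 376 (1.86% and 1.33%), and Ksr1, a scaffold for Raf and MEK, had 2 of the untreated-only regions. Other restraints on ERK (14 genes) had 10 RANKL-only and 2 untreated-only regions of 212 (4.72% and 0.943%). Among these, Errfi1, an inhibitor of the EGF receptor family, and Rasa1, a Ras GTPase-activating protein, had 3 RANKL-only regions each, and Nf1, which encodes neurofibromin, the partner of Spred proteins, had 2. The list of other phosphatases (10 genes) held further Dusp genes with Ppp2ca and Ptpn7, so not all are MAP kinase phosphatases in the narrow sense. It had 7 RANKL-only and 1 untreated-only regions of 168 (4.17% and 0.595%), with 3 RANKL-only regions each at Dusp10 and Dusp22. ERK target genes (22 genes) had 8 RANKL-only and 7 untreated-only regions of 446 (1.79% and 1.57%), with 4 RANKL-only regions at the AP-1 gene Jun and 2 at Klf4, and 2 untreated-only regions at Fosl2. These shares were not tested, and in peaks per gene 0 of the tested members of each list passed an adjusted p of 0.05 in limma in any of the 3 comparisons.

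With RANKL+I-BET against RANKL, regions of both RANKL+I-BET libraries and neither RANKL library were 7 of 366 in the ERK cascade (1.91%), 5 of 214 in the other restraints (2.34%), 3 of 166 in the other phosphatases (1.81%) and 4 of 459 in the targets (0.871%), beside 1.86% of all such regions. Cbl, a ubiquitin ligase for receptor kinases, had 3, and Rps6ka1, Rasa2, Dusp8 and Fos had 2 each. The reverse class held 0, 2, 0 and 1 regions in the same order of lists, or 0%, 0.935%, 0% and 0.218%, beside 0.571% of all.

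With RANKL+I-BET against untreated cells, the lists had 5 of 424 (1.18%), 6 of 232 (2.59%), 10 of 162 (6.17%) and 12 of 457 (2.63%) regions of RANKL+I-BET alone, beside 3.73% of all such regions. Dusp22 and Jun had 4 each, Dusp16 had 3, and Dusp10, Nf1, Rasa2, Fos, Fosl2 and Klf4 had 2 each. Regions of untreated cells alone were 4, 1, 0 and 4 (0.943%, 0.431%, 0% and 0.875%), beside 0.458% of all, and Ksr1 had 2 of them.

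Summed over the 10 genes, peaks numbered 184 and 200 in RANKL cells, 166 and 234 in RANKL+I-BET cells, 194 in I-BET cells and 153 and 180 in untreated cells. As a share of its list the sum was 0.119% and 0.151% in RANKL cells, 0.133% and 0.141% in RANKL+I-BET cells, 0.135% in I-BET cells and 0.112% and 0.154% in untreated cells, so the untreated libraries spanned all others. Of 3982 genes with a mean of at least 10 peaks, those whose peaks per 100000 followed this sum most closely over the 7 libraries were Zmym2 (Pearson r = 0.991), Mkln1 (0.985) and Idh2 (0.985). These are descriptions over 7 lists that differ in quality, chosen as the highest of many.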

How the data were processed

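ATAC-seq was done on 7 libraries of RAW264.7 cells. The build was mm10 and the tools named were MACS2, Bowtie2, SAMtools, bedtools, Picard, cutadapt and FastQC, per the submitters' processing notes; their versions and settings are not given in the sources used here. The authors deposited 1 peak list per library, not pooled. Each deposited line holds positions, a score, the -log10 of a p-value and of a q-value, and a fold (a ratio to local background), all the authors' own and used within 1 list only. A change in transposition within a called region is seen only through these values. Read depth is unknown.

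Touching peaks of all lists were joined (at least 1 bp of a library's peaks made a call) and assigned to the nearest protein-coding gene of a RefSeq table (GRCm38.p6) within 100 kb, by peak midpoint. Peaks per gene were tested with limma 3.58.1 (R 4.3.3), with Benjamini-Hochberg adjustment over all genes tested. The lone I-BET library was assumed to vary like the other groups. The fit was tested on simulated data. Summaries used Python 3.11.15 with pandas 2.3.3. Distances from a start are to the middle of a region.

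Members and lists were chosen with earlier results of these data known. Named were all 10 members, pathway genes with at least 2 regions of a class (at most 4 per list, class and comparison), class and start regions, and the 3 genes most like the members' sum. Regions singled out beyond this rule are said to be so or are those with an unadjusted p under 0.05 or the strongest of a gene.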

Additional observations from a re-analysis of the deposited data

How the results depend on the processing

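Counts of regions at the 10 genes moved with the processing, and the cause was not tested beyond the construction of each alternative. With peaks of a -log10 q of at least 5 the RANKL-only count was 5 and the untreated-only count 0, regions in both RANKL+I-BET and neither RANKL library were 5, and 1 RANKL-only region was called in both RANKL+I-BET libraries. With lists of equal length (117175 peaks) the RANKL-only count was 6 and the count in both RANKL and neither RANKL+I-BET library was 1. When peaks had to cover at least 50% of a region, untreated-only regions were 1 and regions of RANKL+I-BET and not RANKL were 6. Within 50 kb the counts stayed within 1.5 times those given.

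Leaving out 1 library, which lets 1 library stand for its group, gave 11 to 41 RANKL-only and 3 to 35 untreated-only regions. It gave 11 to 44 regions of RANKL+I-BET and not RANKL (11 and 13 without RANKL replicates 1 and 2, 44 and 16 without RANKL+I-BET replicates 1 and 2), and 0 to 18 of the reverse. Against untreated cells it gave 14 to 76 of RANKL+I-BET alone and 1 to 31 of untreated alone, and 3 to 20 RANKL-only regions in both RANKL+I-BET libraries.

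Tests of peaks per gene called 0 genes in all 3 comparisons under every alternative run (another pseudocount, no filter, median ratio scaling, covered bp, stronger peaks, equal lists, 50 kb, a replicate block, each library left out). Of 360 log2 fold changes of the 10 genes in the 3 comparisons under these alternatives, 60 changed sign and 0 passed an adjusted p of 0.05, the lowest being 0.426.

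Same-numbered libraries deviated from their group means together (r of 0.315, 0.352 and 0.198 for peaks per gene, 0.614, 0.420 and 0.582 for shared-region ranks), but no label ties a number to a shared day or culture, so it was not taken as pairing. With a replicate block 0 genes passed in the 3 comparisons and 1 gene, Auts2, passed for the difference between RANKL effects (log2 -5.95, adjusted p = 0.044, limma). The block called 24 shared regions by rank between RANKL and untreated cells, all higher in RANKL, among them the Dusp5 region past the gene, and 0 in the other 2 comparisons. By covered bp that region differed by 0.233 (adjusted p = 0.999), and without 1 library each by 0.583 to 1.67.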
